A study of Mus musculus with 8 samples.

Results

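The genes described here encode the surface receptors and granule proteins by which megakaryocytes, the platelet-forming cells of the bone marrow (BM), and platelets are recognised. They are *Itga2b* and *Itgb3* of the fibrinogen receptor, *Gp1ba*, *Gp1bb* and *Gp9* of the GPIb-IX complex, the collagen receptor gene *Gp6*, and *Pf4*, *Ppbp* and *Vwf* of the granules. The 9 genes were chosen by name, out of 21938 protein-coding genes, and not by a measured value. Earlier results of these data were known when the choice was made. All peaks of H3K9ac, an acetylation of histone H3 found at active promoters and enhancers, were taken that lay within 1 kb of any annotated transcription start site (TSS) of a member or inside its gene body. This gave 80 of the 220499 peaks of the series. ChIP-seq had been performed on whole BM cells of C57BL/6 mice that all carried the *NUP98-HOXD13* transgene, a fusion gene used as a model of myelodysplastic syndrome. The mice expressed *GFI1-36S*, *GFI1-36N* or a lower level of *GFI1* (*GFI1-KD*), 3 forms of a transcriptional repressor of blood cell development. For each genotype there was 1 library of mice given curcumin, an inhibitor of histone acetyltransferases, at 20 mg/kg each week by intraperitoneal injection. A further library came from mice labelled as given no curcumin, which according to the methods received the same volume of DMSO and are called vehicle here. Whether a library holds 1 mouse or several, the age of the mice and the length of treatment are not given in the sources used here. The sample labels name the cells as whole BM, while the study's text also speaks of c-kit+ cells, and its ChIP methods describe no sort. Since each group had a single library, differences could not be set against replicates, no p-value is given, and intervals cover counting error only.

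Megakaryocytes arise from progenitors that they share with erythroid cells, and GATA1, FLI1, RUNX1, NFE2 and TAL1 are the transcription factors best known for switching on their genes. The product of *Itga2b* pairs with that of *Itgb3* to bind fibrinogen when platelets aggregate, while the GPIb-IX complex binds von Willebrand factor, the product of *Vwf*, when platelets stick to a damaged vessel wall. *Itgb3* and *Vwf* are also expressed outside this lineage, *Vwf* above all in endothelial cells. Megakaryocytes are rare in BM, and in such a bulk sample fewer cells of a type and less acetylation per cell cannot be told apart.

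The lists held between 20354 and 49213 peaks, and the median summit rested on 24 to 36 fragments. No peak had a summit of fewer than 13 fragments, so a missing peak says only that the signal did not reach the caller's threshold. The *GFI1-36S* curcumin library stood apart from the other 5. It had the fewest peaks, all 12 T cell marker genes had a promoter peak there against 5 to 7 in the other libraries, and 1 of 12 neutrophil and 1 of 9 erythroid marker genes had one, against 6 to 12 and 4 to 9. It also listed 3 peaks on chromosome Y, where the other libraries listed none. For *GFI1-36S*, moreover, the deposited list names give the treatments the other way round from the sample labels. Groups follow the labels here, and any direction between the treatments of this pair turns if the list names hold. Values with the treatments exchanged are given for the main results, some of them only in the closing sections. In the list names of *GFI1-36N*, vehicle goes with the heterozygous and curcumin with the homozygous state, so allele dose and treatment cannot be told apart in that pair if those names hold.

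Promoter peaks were listed at 4 to 6 of the 9 members in each library, apart from the curcumin library of *GFI1-36S* mice with 1. A member was counted when a peak overlapped the 1 kb on either side of any of its TSSs by at least 1 bp. With vehicle, the number of members with a promoter peak was 5 of 9 in *GFI1-36S*, 5 in *GFI1-36N* and 6 in *GFI1-KD*, while 53.1%, 53.0% and 54.9% of all protein-coding genes had one. With curcumin, the numbers were 1, 5 and 4 members, beside 45.3%, 55.3% and 51.8% of all genes. The shares of the members were near those of all genes except in the *GFI1-36S* curcumin library. Several of these peaks lay at the start of non-coding transcripts inside the genes. When only the TSSs of protein-coding transcripts were used, the counts were 4, 3 and 5 with vehicle and 1, 4 and 2 with curcumin. The shares of all genes above are for any TSS, so these counts cannot be set against them. *Gp1bb*, *Gp6* and *Ppbp* had no promoter peak in any library.

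Where a promoter peak was listed, it was among the weaker of its library. Each gene's strongest promoter peak was ranked by fold enrichment, the summit's fragments divided by those expected from the local background, from just above 0 for the weakest to 100 for the strongest promoter peak of the library, with 0 for no peak. The highest rank of any member was that of *Itgb3* in the *GFI1-36S* vehicle library, at 23.2. All other ranks, from 0.710 for *Pf4* to 22.1, are shown in the plot of ranks by library.

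**Figure D1:**
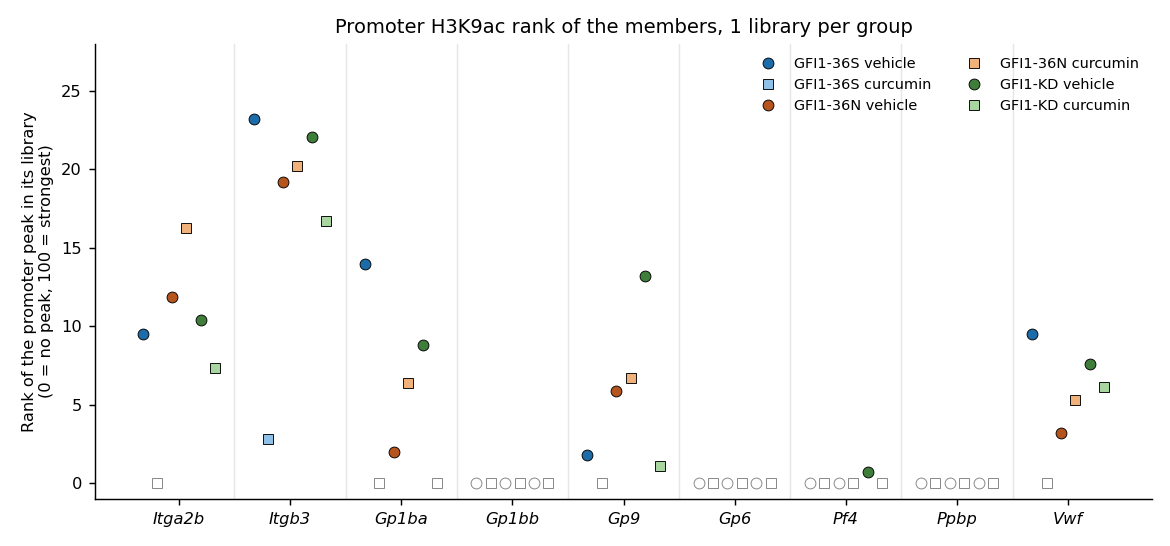
Rank of the strongest promoter peak of each member (y axis, from 0 to 100 in each library, drawn up to 28) in the 6 libraries, 1 point per library, circles for vehicle and squares for curcumin, with open grey symbols at 0 for no peak. *Itgb3* has a peak in all 6 libraries, *Gp1bb*, *Gp6* and *Ppbp* in none, and no member exceeds 23.2.

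*Itgb3*, the beta 3 integrin chain (chr11:104608000-104670476, plus strand, mm10), was the only member with a promoter peak in all 6 libraries. Its fold enrichment was 11.6 in *GFI1-36S* vehicle, 3.92 in *GFI1-36S* curcumin, 8.75 in *GFI1-36N* vehicle, 9.85 in *GFI1-36N* curcumin, 10.95 in *GFI1-KD* vehicle and 8.95 in *GFI1-KD* curcumin. The ranks followed in the same order as 23.2, 2.83, 19.2, 20.2, 22.1 and 16.7. The *GFI1-36S* curcumin library was thus low and the other 5 lay close together. In that library the peak was 293 bp wide with its summit 21 bp after the TSS, in the untranslated part of exon 1, whereas in the others it was 1254 to 2823 bp wide with a summit 286 to 505 bp after the TSS, in intron 1. Expressed as height over the genome background of the same library, the summit reached 14.1 (95% Poisson interval 10.9 to 17.8) with vehicle and 4.56 (2.82 to 6.97) with curcumin in *GFI1-36S* mice, and these intervals did not overlap. In *GFI1-36N* mice the heights were 10.6 (8.18 to 13.6) and 13.6 (10.5 to 17.3), whereas *GFI1-KD* mice had 12.9 (10.2 to 16.1) and 10.7 (8.03 to 14.0). In both of these pairs the intervals overlapped.

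*Itga2b*, the alpha IIb chain whose product is the CD41 antigen (chr11:102453297-102470122, minus strand), had its most regular peak not at the main TSS but about 2.4 kb inside the gene. That peak, with a summit in exon 4 or the end of intron 3, had a fold enrichment of 5.56 in *GFI1-36S* vehicle, 5.90 and 7.96 in *GFI1-36N* vehicle and curcumin, and 5.78 and 5.23 in *GFI1-KD* vehicle and curcumin. It was not listed in *GFI1-36S* curcumin. The summits of the 5 libraries fell within 77 bp of each other. The main TSS itself carried a peak in 3 libraries, with 3.38 in *GFI1-36S* vehicle, 3.12 in *GFI1-36N* curcumin and 5.08 in *GFI1-KD* vehicle. A site about 13.9 kb into the gene, over exon 28, was listed in 5 libraries at 2.88 to 4.85 and again not in *GFI1-36S* curcumin. The sites at exon 4 and exon 28 counted as promoter peaks because short non-coding *Itga2b* transcripts start beside them. The sequences at the main TSS and at the exon 4 site are shown because the second carried the stronger peak. The promoter is RefSeq's 250 bases before the start (GRCm38.p6, chr11:102469884-102470133, minus strand), and the exon 4 site is the 300 bases around the median summit (chr11:102467317-102467616, plus strand). Capitals mark matches, on either strand, to the letters of 4 factor families. The letters searched for the GATA factors were AGATAA, also with T as the first or G as the last letter. For the ETS family, to which FLI1 belongs, the search used AGGAAG on both strands. The RUNX family was represented by the letters TGTGGT, searched in the same way. The SP and KLF factors, written SP/KLF, were represented by GGGCGG.
*Itga2b* promoter: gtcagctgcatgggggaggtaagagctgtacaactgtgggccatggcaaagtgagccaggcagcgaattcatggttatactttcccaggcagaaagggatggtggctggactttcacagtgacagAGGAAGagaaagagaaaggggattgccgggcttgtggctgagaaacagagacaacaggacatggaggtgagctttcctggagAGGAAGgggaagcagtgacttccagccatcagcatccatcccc
*Itga2b* exon 4 site: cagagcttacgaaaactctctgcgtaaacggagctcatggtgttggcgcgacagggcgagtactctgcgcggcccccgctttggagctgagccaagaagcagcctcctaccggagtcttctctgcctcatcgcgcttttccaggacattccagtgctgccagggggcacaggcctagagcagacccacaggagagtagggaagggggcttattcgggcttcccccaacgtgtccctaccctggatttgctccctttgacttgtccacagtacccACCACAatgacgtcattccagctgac
The promoter held 2 ETS matches, and 29.2% of 27025 RefSeq promoters of this length held at least 1. The exon 4 site held 1 RUNX match and 15 CpG dinucleotides. Among the 23089 windows of the same length around *GFI1-KD* vehicle peaks more than 1 kb from any TSS, 24.0% held the RUNX letters and the median number of CpGs was 4. Because the exon 4 site lies beside the start of a non-coding transcript, these windows are not a matched set for it. A match is a description of the letters and not evidence of binding.

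*Gp1ba*, the chain of the GPIb-IX complex that contacts von Willebrand factor (chr11:70639122-70642036, plus strand), had a promoter peak in 4 libraries. Its fold enrichment was 7.41 in *GFI1-36S* vehicle, 3.31 in *GFI1-36N* vehicle, 4.18 in *GFI1-36N* curcumin and 5.22 in *GFI1-KD* vehicle. No peak was listed in the curcumin libraries of *GFI1-36S* and *GFI1-KD* mice. The summits lay 207 to 522 bp before the TSS. The heights over background were 3.72 (95% Poisson interval 2.33 to 5.63) in *GFI1-36N* vehicle and 5.65 (3.72 to 8.22) in *GFI1-36N* curcumin, so the 2 intervals overlapped.

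*Gp9*, the small chain that stabilises the complex on the surface (chr6:87778072-87779768, plus strand), had a promoter peak in 5 libraries. The strongest was that of *GFI1-KD* vehicle, where a single peak of 3314 bp with a fold enrichment of 6.86 ran from beyond the start of the long non-coding RNA gene *Gm43904*, upstream of *Gp9*, into the gene. The summit of this peak was 2203 bp before the *Gp9* TSS. In *GFI1-KD* curcumin the gene kept 1 peak of 216 bp at 3.33, with 19 fragments. The strongest promoter peak reached 3.38 in *GFI1-36S* vehicle, 4.17 in *GFI1-36N* vehicle and 4.33 in *GFI1-36N* curcumin, and none was listed in *GFI1-36S* curcumin. In *GFI1-36S* and *GFI1-36N* vehicle the upstream signal was called as separate peaks that ended 1014 bp before the TSS, just outside the window. The rank of *Gp9* in *GFI1-KD* vehicle, 13.2, therefore rests on a summit outside the 1 kb.

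The promoters of *Gp1ba* (chr11:70638872-70639121, plus strand) and *Gp9* (chr6:87777820-87778069, plus strand) are printed with the same marking, since their peaks were among those not listed, or narrower, with curcumin in *GFI1-36S* and *GFI1-KD* mice.
*Gp1ba* promoter: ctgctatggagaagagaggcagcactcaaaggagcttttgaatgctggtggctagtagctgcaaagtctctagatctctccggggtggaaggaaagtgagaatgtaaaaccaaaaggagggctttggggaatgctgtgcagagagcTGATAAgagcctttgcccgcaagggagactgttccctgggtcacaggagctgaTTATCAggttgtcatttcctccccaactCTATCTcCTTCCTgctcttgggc
*Gp9* promoter: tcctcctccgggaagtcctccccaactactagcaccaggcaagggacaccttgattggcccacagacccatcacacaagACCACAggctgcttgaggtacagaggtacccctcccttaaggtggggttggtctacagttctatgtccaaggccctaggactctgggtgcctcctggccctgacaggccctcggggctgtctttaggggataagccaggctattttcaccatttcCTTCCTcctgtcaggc
The *Gp1ba* promoter held 3 GATA matches and 1 ETS match, and that of *Gp9* held 1 ETS and 1 RUNX match. GATA letters were found in 27.1% and RUNX letters in 14.2% of the RefSeq promoters. RefSeq promoters were at hand for 7 of the 9 members, all but *Itgb3* and *Vwf*. Of these 7, 6 held 1 or 2 CpGs in 250 bases and that of *Gp1bb* held 7, beside a median of 6 over all promoters.

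**Figure D2:**
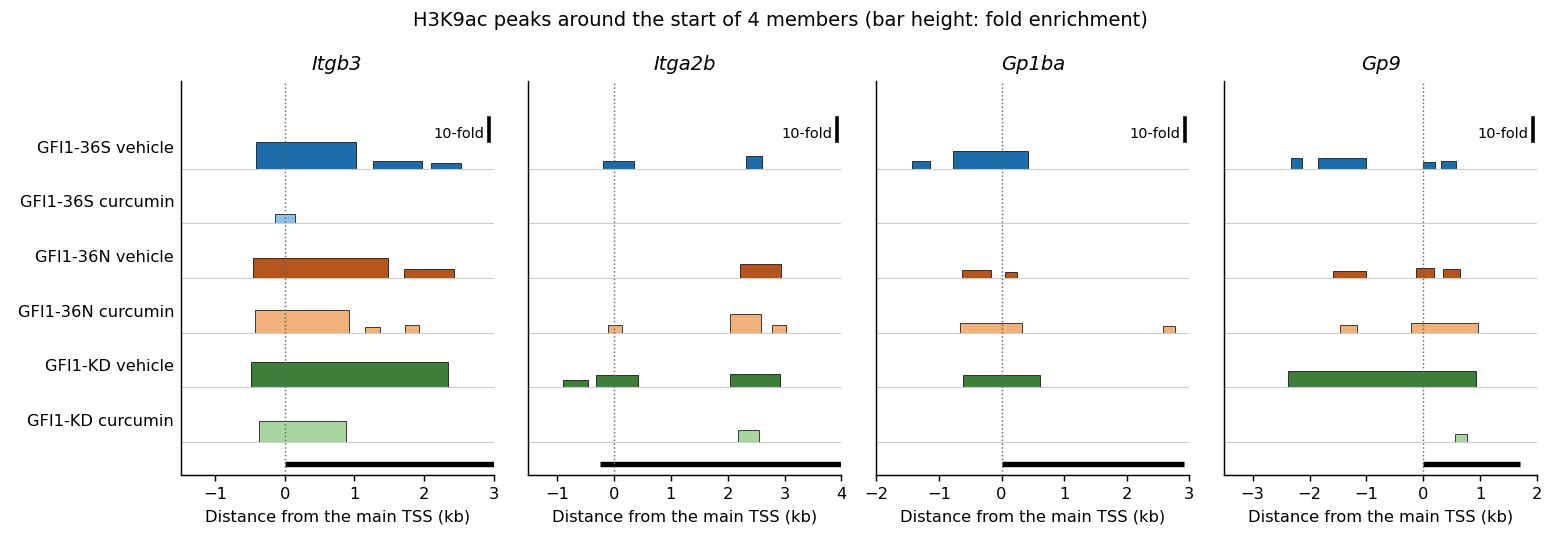
H3K9ac peaks near the start of 4 members in the 6 libraries, 1 lane per library, with the distance from the main TSS in kb on the x axis, each box as wide as the peak and as high as its fold enrichment (scale bar 10-fold), and the black line for the gene. *GFI1-36S* curcumin shows 1 narrow box at *Itgb3* and none at the other genes, and the 3314 bp box of *Gp9* is seen in *GFI1-KD* vehicle.

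*Gp1bb*, the beta chain of the same complex (chr16:18620317-18622403, minus strand), had no peak in its gene in any library. *Gp6*, the collagen receptor of platelets (chr7:4363965-4397744, minus strand), had no peak within 3 kb of a TSS in any library. Inside the gene, no peak lay nearer than 32809 bp to a TSS, and sites further upstream were not searched. A weak peak lay in the untranslated part of its exon 8 in both *GFI1-36N* libraries, with a fold enrichment of 3.45 and 23 fragments with vehicle and 3.46 and 19 fragments with curcumin.

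*Vwf* (chr6:125546774-125686679, plus strand) carried the strongest H3K9ac of all members, and it lay in an intron. A peak in intron 6, about 20.2 kb after the main TSS, had a fold enrichment of 16.5 in *GFI1-36S* vehicle, 13.9 and 13.7 in *GFI1-36N* vehicle and curcumin, and 18.3 and 17.2 in *GFI1-KD* vehicle and curcumin. Like the exon 4 site of *Itga2b*, it was not listed in *GFI1-36S* curcumin. The 5 libraries lay close together. The summits rested on 97, 101, 78, 133 and 103 fragments in this order and fell within 144 bp of each other, and the peaks were 1505 to 1889 bp wide. No TSS of any annotated gene lay within 6022 bp. Peaks more than 1 kb from a TSS were usually narrow, with medians of 356 to 442 bp in the same libraries, and the *Vwf* site was stronger than 98.4% to 99.3% of them. Among all peaks of these libraries, promoters included, it was stronger than 79.8% to 83.1%.

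The height of the *Vwf* intron 6 site differed by less than its counting error in the pairs where it was listed in both libraries. It was 17.1 (95% Poisson interval 13.9 to 20.7) with vehicle and 16.3 (12.9 to 20.4) with curcumin in *GFI1-36N*, then 21.7 (18.2 to 25.7) and 20.8 (17.0 to 25.3) in *GFI1-KD*. In *GFI1-36S* vehicle it was 20.1 (16.3 to 24.5). Thus in *GFI1-KD* mice this site was listed at a like height in both libraries, while the promoter peaks of *Gp1ba* and *Pf4* were listed in the vehicle library alone. The 300 bases around the median summit (chr6:125572980-125573279, plus strand) are given because no other member site was as strong.
*Vwf* intron 6 site: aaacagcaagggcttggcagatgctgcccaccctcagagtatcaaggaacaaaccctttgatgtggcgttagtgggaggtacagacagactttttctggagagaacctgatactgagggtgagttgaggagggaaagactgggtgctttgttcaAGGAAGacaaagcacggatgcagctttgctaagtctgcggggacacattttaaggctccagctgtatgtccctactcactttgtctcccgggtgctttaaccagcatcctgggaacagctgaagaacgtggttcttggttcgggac
This window held 1 ETS match and 6 CpGs, and 43.0% of the distal windows held the ETS letters. GATA letters occurred in 37.7% of the distal windows, and SP/KLF letters in 7.41% of these and in 32.9% of the promoters.

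At the promoters of *Vwf* itself, no peak was listed within 1 kb of a TSS of a protein-coding transcript in any library. The promoter peaks counted for *Vwf* were at non-coding transcripts in introns 3 and 14, and the site differed between libraries. In intron 3 the fold enrichment was 5.56 in *GFI1-36S* vehicle and 4.81 in *GFI1-KD* vehicle. A peak there in *GFI1-36N* vehicle, at 3.45 with 23 fragments, lay 1125 bp from the nearest TSS and was not counted. No library labelled as curcumin listed a peak at this site. In intron 14 it was 3.60 and 3.98 in *GFI1-36N* vehicle and curcumin, and 2.70 and 4.82 in *GFI1-KD* vehicle and curcumin. Of 10 endothelial marker genes, 3, 1, 3, 3, 4 and 2 had a promoter peak in the 6 libraries, in the order *GFI1-36S*, *-36N* and *-KD* with vehicle before curcumin. Their summed ranks were 47.3, 17.3, 91.7, 77.1, 88.3 and 76.0. Most of the 10 markers had no promoter peak in any library. The largest part of each sum was the rank of 1 marker, *Pecam1*, at 27.3, 17.3, 56.5, 45.1, 48.5 and 45.2. The part of endothelial cells in the *Vwf* signal was not tested.

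*Itgb3* had intronic H3K9ac as well. A site in intron 10, about 39.4 kb after the TSS, had a fold enrichment of 7.58 in *GFI1-36S* vehicle, 7.48 and 6.23 in *GFI1-36N* vehicle and curcumin, and 9.996 and 5.36 in *GFI1-KD* vehicle and curcumin. It was stronger than 70.5% to 95.6% of the distal peaks of these libraries. *GFI1-36S* curcumin again had no peak there. In this library 4 other peaks were listed 54.2 to 58.3 kb after the TSS, in introns 12 to 14, with fold enrichments of 7.60, 3.11, 3.21 and 3.38, and no other library listed a peak at any of them. The first was 1140 bp wide, rested on 45 fragments and was stronger than 94.8% of the distal peaks of its list. The summed rank of the 12 T cell markers was 476 in this library and 58.0 to 111 in the other 5, and the part of T cells in these 4 peaks was not tested.

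**Figure D3:**
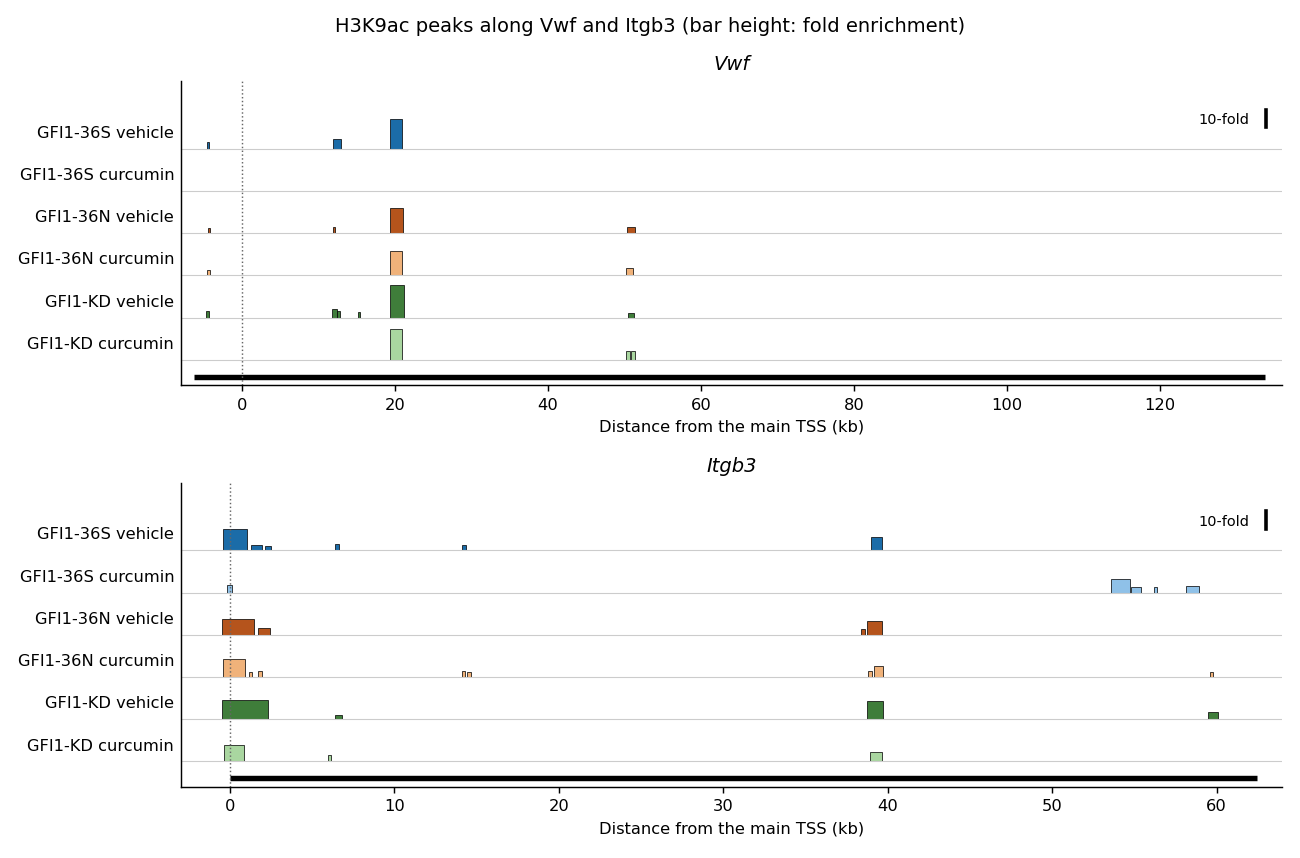
H3K9ac peaks along *Vwf* (top) and *Itgb3* (bottom) in the 6 libraries, with the distance from the main TSS in kb on the x axis and boxes as high as the fold enrichment (scale bar 10-fold). The intron 6 site of *Vwf* stands near 20.2 kb in 5 libraries, and the peaks of *Itgb3* between 54.2 and 58.3 kb appear in *GFI1-36S* curcumin alone.

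*Pf4* and *Ppbp*, which encode the chemokines platelet factor 4 and pro-platelet basic protein of the alpha granules, lie next to each other on chromosome 5 and were nearly without listed H3K9ac peaks. A single peak, in *GFI1-KD* vehicle, lay 305 bp before the *Pf4* TSS with a fold enrichment of 3.03 and 21 fragments, and its height was 3.43 (95% Poisson interval 2.12 to 5.24). It was 3356 bp from the *Ppbp* TSS and so did not count for that gene.

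**Figure D4:**
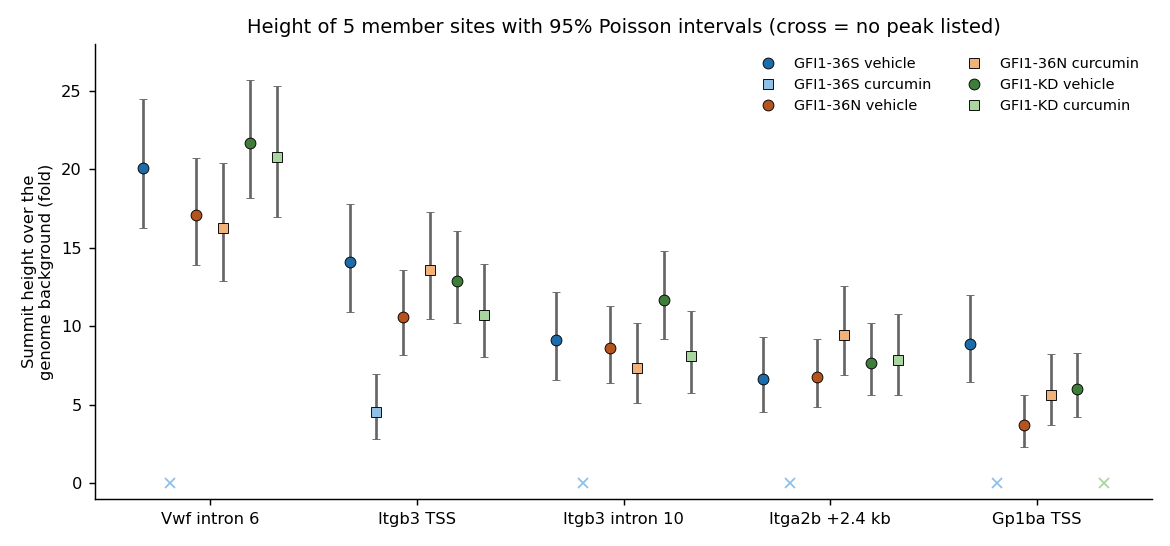
Summit height over the genome background of the library (y axis, fold, with 95% Poisson intervals that cover counting error only) at 5 member sites in the 6 libraries, circles for vehicle, squares for curcumin and crosses at 0 for no listed peak. The *Vwf* intron 6 site is the highest, at 16.3 to 21.7 in the 5 libraries that list it, and the vehicle and curcumin intervals of *GFI1-36N* and of *GFI1-KD* overlap at each site listed in both.

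The comparison of curcumin with vehicle asks whether an acetyltransferase inhibitor shifts H3K9ac at these genes in each genotype. A promoter peak was called lost when it was listed with vehicle and not with curcumin, and gained in the reverse case. In *GFI1-36S* mice, 4 of 5 members lost the peak (*Itga2b*, *Gp1ba*, *Gp9* and *Vwf*) and none gained one, beside 16.5% lost and 2.03% gained among the 11894 genes with a promoter peak in either library. In *GFI1-36N* mice, none of 5 lost or gained it, beside 1.84% and 5.93% of 12350 genes. In *GFI1-KD* mice, 2 of 6 lost it (*Gp1ba* and *Pf4*) and none gained one, beside 6.79% and 1.25% of 12188 genes. These shares of all genes are not matched for rank, and members with weak peaks had more room to be lost. Among the promoters of any gene ranked up to 15 with vehicle, a limit set after the members' ranks were seen, 70.4% lost the peak in *GFI1-36S*, 12.1% in *GFI1-36N* and 38.6% in *GFI1-KD*. Of the members under this limit, 4 of 4, 0 of 4 and 2 of 5 lost it. With the *GFI1-36S* treatments exchanged, 0 members lost and 4 gained the peak in that pair, and the share under this limit was not computed.

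By rank, the members with a peak were higher with curcumin in *GFI1-36N* mice and lower in *GFI1-36S* and *GFI1-KD* mice, as was the median of all genes, and several of the small changes turned under other settings. In *GFI1-36N* mice all 5 members were higher with curcumin, by 0.773 (*Gp9*) to 4.47 (*Itga2b*), with a median of 2.11, while the median over all genes was 1.98. In *GFI1-KD* mice all 6 were lower, by a change of −0.710 (*Pf4*) to −12.0 (*Gp9*), with a median of −4.22 against −2.37 for all genes. In *GFI1-36S* mice all 5 were lower, with a median of −9.52 against −6.73. With the *GFI1-36S* treatments exchanged, the median of that pair is 9.52. The lists also differed in length, and the number of genes with a promoter peak went from 11618 to 12123 in *GFI1-36N*, from 12036 to 11360 in *GFI1-KD* and from 11652 to 9932 in *GFI1-36S*, the same directions as the ranks. With equal numbers of top peaks in every list the medians shrank to −5.44 in *GFI1-36S*, −2.45 in *GFI1-KD* and 0.734 in *GFI1-36N*. In *GFI1-36N* mice the change of *Itgb3* turned from 1.07 to −1.03 with equal numbers of peaks, and that of *Gp9* from 0.773 to −0.440 at a −log10 q of at least 5. In *GFI1-KD* mice that of *Gp9* turned from −12.0 to 1.16 when the summit had to lie within 1 kb. The change of *Vwf* there, −1.42, compares a peak in intron 3 with one in intron 14, and was 0.250 with equal numbers of peaks, 1.83 with the summit within 1 kb and 1.01 by summit height.

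Rank changes of at least 10 were seen at a share of the members near or under that of all genes. In *GFI1-36S* mice 2 of 5 were lower by at least this much and none higher, while 41.6% of all genes were lower and 56.3% changed this much in either direction. In *GFI1-36N* mice there was none in either direction, beside 30.5% of all genes. In *GFI1-KD* mice 1 of 6, *Gp9*, was lower and none higher, beside 20.7% lower and 30.1% in either direction, and the change of *Gp9* was 1.16 with the summit within 1 kb. A member that starts at a rank under 10 cannot be lower by 10, so these counts are bounded by the weak starting peaks. Marker counts of other cells moved with those of the members only in part. For *GFI1-KD*, 12 neutrophil markers had a promoter peak with vehicle and 6 with curcumin. The erythroid markers with a peak numbered 9 and 4 there, but the stem and progenitor markers 8 and 9. For *GFI1-36N*, where no member lost a peak, 10 and 10 neutrophil and 8 and 6 erythroid markers had one. By median change in rank, however, the neutrophil, erythroid and stem and progenitor markers were higher in *GFI1-36N*, at 7.57, 4.11 and 2.77. In *GFI1-KD* the same lists were lower, at −19.6, −15.3 and −0.233, the directions of the members in both pairs. The part of cell composition in the member changes was not tested.

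Between genotypes with vehicle alone, the members did not move together. Compared with *GFI1-36S*, 2 members ranked higher and 3 lower in *GFI1-36N* mice, with a median difference of −4.02 and a range of −12.1 (*Gp1ba*) to 4.12 (*Gp9*), beside a median of −0.617 over 12031 genes. In *GFI1-KD* mice 3 ranked higher and 3 lower, with a median of −0.204 and a range of −5.25 (*Gp1ba*) to 11.4 (*Gp9*), beside 1.10 over 12307 genes. Both comparisons share the *GFI1-36S* vehicle library. *Gp1ba* was thus highest in *GFI1-36S* vehicle, at a rank of 14.0 against 1.99 and 8.80, and *Gp9* in *GFI1-KD* vehicle, at 13.2 against 1.79 and 5.91. This rank of *Gp9* rests on the summit 2203 bp upstream. With the summit within 1 kb the 3 ranks were 0 in *GFI1-KD*, 1.91 in *GFI1-36S* and 6.09 in *GFI1-36N*, and with a window of 3 kb they were 14.1, 7.89 and 6.75. With the treatments of *GFI1-36S* exchanged, *Gp1ba* and *Gp9* ranked 0 in *GFI1-36S* vehicle.

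Over the whole gene bodies, peaks covered 3.18% of the 262183 bp of the 9 gene bodies in *GFI1-36S* vehicle and 1.10% in *GFI1-36S* curcumin, 3.27% and 3.19% in *GFI1-36N*, then 4.63% and 1.97% in *GFI1-KD*. Per gene, the members with a promoter peak had a median covered share of 6.75% and 4.60% (*Itgb3* alone) in *GFI1-36S*, 6.16% and 7.85% in *GFI1-36N*, then 9.05% and 3.09% in *GFI1-KD*. Over all protein-coding genes with a promoter peak the medians were 7.27%, 4.22%, 7.09%, 7.44%, 7.63% and 5.70% in the same order, so the members' medians lay above and below them. *Gp9*, the second shortest of the genes with a peak, was covered most, with 27.4%, 0%, 28.4%, 56.9%, 54.6% and 12.7% of its 1697 bp. In *GFI1-36S* curcumin the 5 peaks in *Itgb3* made up all of the covered bases of the 9 members.

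The 2 promoters most like that of *Itgb3* over the 6 libraries, by the mean absolute difference in rank, were those of *Tctn3*, a ciliary transition zone gene, at 1.27, and *Slc25a14*, a mitochondrial carrier gene, at 1.54. Both had their lowest rank in *GFI1-36S* curcumin, at 3.56 and 2.17. This follows from their choice by likeness to *Itgb3* in the same libraries and is not a separate result.

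A larger share of a wider list of megakaryocyte genes than of the members had a promoter peak. That list is not confined to this lineage, as *Cxcr4* is found on many blood cells, and its groups differed. In *GFI1-36S* vehicle 6 of 13 other surface glycoprotein genes had a promoter peak, and 15 of 16 transcription factor genes. Of 74 further genes of surface receptors, agonist receptors, granules, cytoskeleton, signalling and transcription factors, 58 had a promoter peak in *GFI1-36S* vehicle and 35 in *GFI1-36S* curcumin, 57 and 59 in *GFI1-36N*, then 60 and 54 in *GFI1-KD*. In *GFI1-36S* mice the rank of 34 of 58 genes was lower by at least 10 and that of 9 was higher by as much. There 23 of the 58 lost the peak and none gained one, and the median change in rank was −16.3. With the treatments of this pair exchanged, 0 lost and 23 gained it, 9 were lower and 34 higher by at least 10, and the median was 16.3. The losses and signs given below for the groups in *GFI1-36S* turn in the same way. In *GFI1-36N* mice 2 lost and 4 gained it, with a median of −0.370 over 61 genes. In *GFI1-KD* mice 7 lost and 1 gained it, with a median of −5.67 over 61 genes. The shares of all genes given above for each pair apply here too. Of the 74 genes, 10 had no promoter peak in any library, among them *Tubb1*, the platelet tubulin, and *Clec1b* and *Treml1*, platelet surface receptors.

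The transcription factors of the lineage, the largest group, had a promoter peak at 15 of 16 genes in *GFI1-36S* vehicle. *Fli1* had the highest median rank, 93.1. *Gata1*, which encodes the factor that megakaryocytes and erythroid cells share, ranked 14.0 with vehicle and 0 with curcumin in *GFI1-36S*, 0 and 3.90 in *GFI1-36N*, then 11.1 and 0 in *GFI1-KD* mice. It was thus lost with curcumin where *Gp1ba* was, and gained in *GFI1-36N*. *Gata2*, *Tal1*, *Gfi1b* and *Mef2c* lost their peak in *GFI1-36S* mice. *Tal1*, a partner of GATA1, also ranked 56.9 with vehicle and 16.7 with curcumin in *GFI1-KD* mice. Median changes of the group were −15.6, −0.0172 and −5.56 in *GFI1-36S*, *-36N* and *-KD*.

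Among the other surface glycoproteins, *Gp5*, a further chain of the GPIb complex, ranked 25.0 and 0 in *GFI1-36S*, 0 and 15.2 in *GFI1-36N*, then 14.0 and 0 in *GFI1-KD* mice. It was the only gene of the list besides *Gata1* that was lost in *GFI1-36S* and *GFI1-KD* and gained in *GFI1-36N*. *Cd9*, a tetraspanin of the platelet membrane, ranked 44.4 and 0, 27.7 and 29.0, and 70.8 and 11.6 in the same pairs. *Fcer1g*, the signalling chain of the GP6 receptor, had the highest median of the group, 46.9. *Fcer1g*, *Cd9*, *Mpig6b* and *F11r* lost the peak in *GFI1-36S* mice, *F11r* also in *GFI1-KD*, while *Cd226* lost and *Ly6g6f* gained one in *GFI1-36N*. Group medians were −17.0, 0.246 and −7.55.

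Receptors for soluble agonists differed among themselves. *Cxcr4*, the chemokine receptor that holds cells in the marrow and is found on many blood cells, had the highest median rank, 96.6. The ADP receptor genes *P2ry1* and *P2ry12*, the ATP channel gene *P2rx1*, the protease-activated receptor gene *F2rl2* and the prostacyclin receptor gene *Ptgir* lost their peak in *GFI1-36S* mice. *F2rl2* also lost it and *F2rl3* gained one in *GFI1-KD* mice, and the thromboxane receptor gene *Tbxa2r* lost it in *GFI1-36N*. Group medians were −4.74, −0.0141 and 1.17.

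Granule, cytoskeleton and signalling genes completed the list. *Vamp8*, a SNARE of granule release, had the highest median rank of the granule group, 94.3. *Selp*, *Thbs1* and *F5* lost the peak in *GFI1-36S* mice, and *Thbs1*, the gene of thrombospondin, also in *GFI1-KD*, where it ranked 20.0 with vehicle. The granule medians were −17.0, 4.19 and −4.34. In the cytoskeleton group, led by *Diaph1* at a median rank of 94.2, no gene lost or gained a peak in any pair, and the medians were −8.25, −5.68 and −7.33. In the signalling group, led by *Tbxas1*, the thromboxane synthase, at 88.3, *Plek*, *Rgs18*, *Plcg2*, *Syk* and *Ptgs1* lost the peak in *GFI1-36S*. *Gng11*, a G protein chain, gained one in *GFI1-36N* and lost it in *GFI1-KD*, and *Alox12*, the platelet lipoxygenase, lost it in *GFI1-KD*. The signalling medians were −23.6, −1.16 and −8.23.

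**Figure D5:**
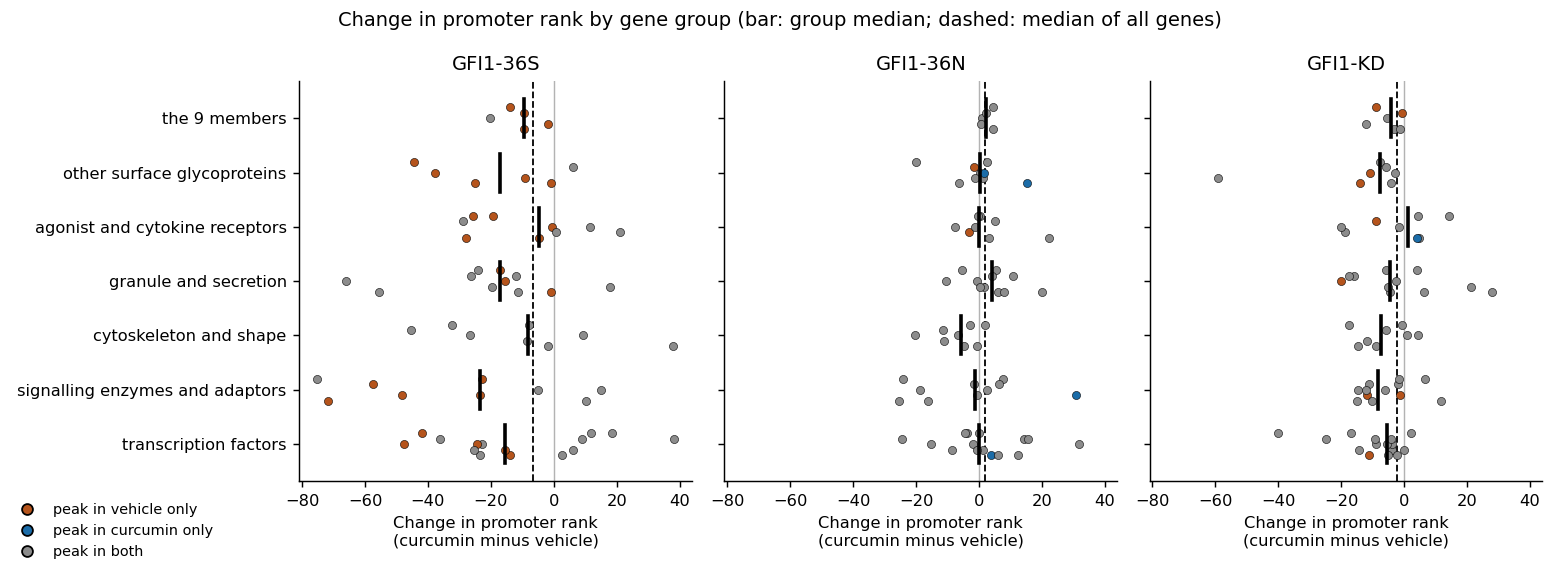
Change in promoter rank, curcumin minus vehicle (x axis), of the 9 members and of 6 groups of further megakaryocyte genes in each genotype, 1 point per gene with a peak in either library, coloured by the library that lists it, with the group median as a bar and the median of all genes dashed. The members lie on the lower side in *GFI1-36S* and *GFI1-KD* and on the higher side in *GFI1-36N*, on the same side of 0 as the median of all genes, and the sides of *Itgb3* and *Gp9* in *GFI1-36N* and of *Gp9* and *Vwf* in *GFI1-KD* turned under at least 1 other setting.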

How the data were processed

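BM cells of 6 groups with 1 H3K9ac ChIP-seq library each were analysed. Of 8 samples, 2 controls (*GFI1-36S* input and *GFI1-36N* rabbit IgG) were not used here. The authors trimmed the reads with Trim Galore, mapped them with BWA-MEM to mm10, called peaks per library with MACS2 and applied the ENCODE black list. Per the labels, SAMtools, Picard and deepTools were also used. Versions, the control of each list and the threshold are not given in the sources used here. The deposited lists hold each peak's fold enrichment (a ratio), −log10 p, −log10 q and integer score, all from the authors' peak caller. No scaling between libraries was applied to them, and therefore ranks within a list were compared.

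Genes and TSSs were taken from GENCODE M21 (mm10), without the mitochondrial genome. Promoters spanned 1000 bp to either side of any TSS. Whole fragments at each summit were recovered from MACS2's relation of fold enrichment (pseudocount 1) and p, within 0.002 on the −log10 p scale, for 98.0% to 99.8% of the peaks, and height is their scaled number over the genome background. Intervals are exact Poisson intervals at 95%, for counting error only. Sequences came from RefSeq promoters and the GRCm38.p6 genome. Python 3.11.15, pandas 2.3.3, NumPy 2.4.6, SciPy 1.17.1, pysam 0.24.0 and matplotlib 3.10.9 were used, and the steps were tested on simulated data. No group had replicates, so no test within a genotype could be made, and a test of the treatment with the 3 genotypes as pairs was not run.

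The members, lists and alternatives were chosen with earlier results of these data known. Named were all members, in each pathway group the genes of highest and lowest median rank and those that lost or gained a peak, the 2 genes nearest to a member with a peak in all 6 libraries, and genes starting within 1 kb of a member's peak. Genes of the other cell types, of which B cell, progenitor and mast cell lists appear at the end, were counted only, apart from *Pecam1*. *Ahsp* of the erythroid list was not matched. The values of 1 pathway gene are not reported here. As alternatives served a −log10 q of at least 5, equal numbers of top peaks (20354), a window of 3 kb, the summit inside the window, the most upstream TSS, exchanged *GFI1-36S* treatments, ranks by −log10 p or height, members with a peak in both libraries, bodies without the 1 kb next to a TSS and, added after seeing the data, TSSs of protein-coding transcripts.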

Additional observations from a re-analysis of the deposited data

Results flagged for a closer look

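The change in promoter rank with curcumin differed in direction between genotypes for the 5 members with a peak in several libraries. The difference between genotypes was not tested, since each group had 1 library, and it follows the direction of the median of all genes. The signs of *Itgb3* and *Gp9* in *GFI1-36N* and of *Gp9* and *Vwf* in *GFI1-KD* turned under other settings. The median change of the members was −9.52 in *GFI1-36S*, 2.11 in *GFI1-36N* and −4.22 in *GFI1-KD*. In the same order, the change was −9.52, 4.47 and −3.12 for *Itga2b*, −20.4, 1.07 and −5.32 for *Itgb3*, and −14.0, 4.38 and −8.80 for *Gp1ba*. For *Gp9* it was −1.79, 0.773 and −12.0, and for *Vwf* −9.52, 2.11 and −1.42.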

How the results depend on the processing

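No paired analysis was possible because each group had 1 library, so that no replicate numbers could be matched within a genotype. A fit of the treatment with the 3 genotypes as pairs was not run. Of 134 values of the main results under an alternative, 97 stayed within 1.5 times the reported value. Another 36 moved by more than this, or to or from 0, and 1 reversed. The 97 include *GFI1-36N* and *GFI1-KD* values under the exchange of the *GFI1-36S* treatments, which cannot change them. The reversed value is the *GFI1-36S* median with its own treatments exchanged, a turn that was fixed in advance. With the *GFI1-36S* treatments exchanged, 1 member had a promoter peak with vehicle and 5 with curcumin, 0 lost and 4 gained it, the median change turned to 9.52 (*Itga2b* 9.52, *Itgb3* 20.4, *Gp1ba* 14.0, *Gp9* 1.79, *Vwf* 9.52), and the covered shares were 1.10% and 3.18%. With equal numbers of top peaks, 2 members had a peak in each *GFI1-36N* library, the medians were −5.44, 0.734 and −2.45 in *GFI1-36S*, *-36N* and *-KD*, *Itgb3* in *GFI1-36N* turned to −1.03 and *Vwf* in *GFI1-KD* to 0.250, and the covered share was 1.94% in *GFI1-36S* vehicle and 1.83% and 1.32% in *GFI1-36N*. At a −log10 q of at least 5, 1 member gained a peak in *GFI1-36N*, the median there was 0.910 with *Gp9* at −0.440, and 1.94% and 0.490% of the bodies were covered in *GFI1-36S*. With the most upstream TSS, 3 members had a peak in *GFI1-36N* vehicle and 2 in *GFI1-KD* curcumin, 1 gained a peak in *GFI1-36N*, and the medians were 1.25 and −8.29 in *GFI1-36N* and *-KD*. With TSSs of protein-coding transcripts the same counts were 3, 2 and 1, and the medians 1.18 and −8.17. With the summit inside the window, 1 member gained a peak in *GFI1-KD*, where the median was −1.99, *Gp9* 1.16 and *Vwf* 1.83. *Vwf* in *GFI1-KD* was 1.01 by summit height. *Itgb3*, the single member with a peak in both *GFI1-36S* libraries, gave −20.4. Without the 1 kb next to a TSS, 2.06%, 2.16%, 1.78%, 2.86% and 1.08% of the bodies were covered in *GFI1-36S* vehicle, *GFI1-36N* vehicle and curcumin, and *GFI1-KD* vehicle and curcumin. With 24 to 36 fragments at the median summit, a member peak near the threshold can be listed in 1 library and missed in another.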

Other observations

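Some H3K9ac lay just outside the windows of the members. In *GFI1-36S* vehicle a peak with a fold enrichment of 3.21 and 18 fragments had its summit 1261 bp before the *Gp1ba* TSS. In *GFI1-36N* curcumin, a peak of 2.94 and 16 fragments lay 3469 bp from the nearest *Gp1bb* TSS, and was the closest to that gene in any library. A peak between the alternative first exons of *Vwf*, 1496 to 1742 bp from the nearest TSS, was listed in the vehicle libraries of *GFI1-36S*, *-36N* and *-KD* and in *GFI1-36N* curcumin, at 3.71, 3.02, 3.71 and 2.94.

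The marker genes of other BM cells did not all move with the members. Of 10 stem and progenitor markers, 8 had a promoter peak in *GFI1-KD* vehicle and 9 in *GFI1-KD* curcumin, and 8 and 1 in *GFI1-36S*. Of 8 B cell markers, 2 and 1 had one in *GFI1-36S*, 3 and 2 in *GFI1-36N*, then 5 and 3 in *GFI1-KD*. Of 8 mast cell and basophil markers, 1 and 1, 2 and 4, and 2 and 2 had one. The 10 of 12 neutrophil markers with a peak in *GFI1-36N* vehicle and the 10 in *GFI1-36N* curcumin had summed ranks of 146 and 185.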
